A study of Homo sapiens with 9 samples.

Results

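The subject of these results is the nuclear genes for subunits of the respiratory chain complexes I, III and IV and of the ATP synthase (complex V), measured in the AGS line, an established line of human gastric adenocarcinoma cells. The genes were chosen by name, as those whose symbol on the array starts with NDUFA, NDUFB, NDUFC, NDUFS, NDUFV, UQCR, COX4, COX5, COX6, COX7, COX8 or ATP5, together with CYC1. Pseudogenes and assembly factors were left out. This gave 74 genes with 89 probes, of 17054 named genes with a probe on both array versions used, and each gene is represented by its brightest probe. There were 33 genes of complex I, 8 of complex III, 16 of complex IV and 17 of complex V. AGS HIF- cells carry a lentiviral short hairpin RNA against HIF1A in stable form, and AGS SCR cells carry a scrambled control hairpin. Both were kept in the same serum-containing medium at 5% CO2. Each group has 3 biological replicates on 9 Illumina BeadChip arrays. Replicates 1 and 2 have 1 HIF- and 1 SCR array each on the HumanRef-8 version, and replicate 3 has 3 HIF- and 2 SCR arrays of the HumanHT-12 version, which are technical replicates. The HIF- and SCR samples of a replicate shared a BeadChip. The group contrast rests on 1 hairpin line against 1 control line, and the labels do not say whether the replicates came from separate transductions.

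Respiratory complexes I, III and IV pass electrons from NADH to oxygen in the inner mitochondrial membrane and pump protons, and the ATP synthase lets the protons return while it makes ATP. Complex II feeds electrons in without pumping. A few subunits of complexes I, III, IV and V are encoded by mitochondrial DNA and were not analysed here. The nuclear subunits measured here include catalytic core subunits and many small accessory subunits that stabilise the complexes. HIF-1, whose oxygen-regulated subunit is the product of HIF1A, is known in mammalian cells to alter respiration under hypoxia. Among the known routes are PDK1, a second isoform of cytochrome oxidase subunit 4 (COX4I2) with the protease LONP1, and NDUFA4L2, now named COXFA4L2. The nuclear respiratory factor NRF1 and the ETS factor GABP are known to bind in the promoters of many respiratory chain genes.

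The 250 bases before the annotated start are shown for 4 of the genes, 3 of them because they had an unadjusted p under 0.05 from limma (UQCR11, ATP5MK and NDUFS1) and UQCR10 because its difference varied most between replicates. The sequences are from RefSeq (GRCh38.p14), 5′ to 3′ on the strand of the gene, and capitals mark each match on either strand to the NRF1 core TGCGCA or the ETS motif CCGGAAG. UQCR11 lies on the minus strand (chr19:1605463-1605712), as do ATP5MK (chr10:103396476-103396725) and NDUFS1 (chr2:206159445-206159694), and UQCR10 lies on the plus strand (chr22:29767119-29767368).
UQCR11: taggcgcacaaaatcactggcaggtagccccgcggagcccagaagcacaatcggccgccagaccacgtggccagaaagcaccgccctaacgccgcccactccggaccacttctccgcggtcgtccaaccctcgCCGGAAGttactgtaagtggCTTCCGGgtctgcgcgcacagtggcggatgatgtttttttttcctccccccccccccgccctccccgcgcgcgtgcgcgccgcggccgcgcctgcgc
ATP5MK: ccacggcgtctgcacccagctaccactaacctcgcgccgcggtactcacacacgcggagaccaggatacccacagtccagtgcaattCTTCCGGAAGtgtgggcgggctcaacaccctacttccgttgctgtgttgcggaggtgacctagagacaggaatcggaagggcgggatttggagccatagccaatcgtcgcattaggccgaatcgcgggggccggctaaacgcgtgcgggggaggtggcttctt
NDUFS1: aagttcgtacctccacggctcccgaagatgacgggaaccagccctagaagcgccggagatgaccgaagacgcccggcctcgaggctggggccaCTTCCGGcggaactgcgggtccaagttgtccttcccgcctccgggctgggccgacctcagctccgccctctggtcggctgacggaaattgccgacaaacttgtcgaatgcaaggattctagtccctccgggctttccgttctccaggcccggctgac
UQCR10: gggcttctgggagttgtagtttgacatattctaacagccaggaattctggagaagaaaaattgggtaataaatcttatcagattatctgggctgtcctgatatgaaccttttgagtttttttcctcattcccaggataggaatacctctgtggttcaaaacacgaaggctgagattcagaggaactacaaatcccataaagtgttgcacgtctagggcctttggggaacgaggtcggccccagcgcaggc

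UQCR11 held 2 separate ETS matches, ATP5MK held 2 that overlap each other, NDUFS1 held 1, and UQCR10 held none. None of the 4 held the NRF1 core. Of the 74 genes, 62 had a promoter in the RefSeq table used. The NRF1 core was present in 13 of the 62 (21%, against 7.05% of all 27305 promoters of the same length). The ETS motif was present in 15 (24.2%, against 8.82%). The Sp1 motif GGGCGG was present in 34 (54.8%, against 42.3%). The hypoxia response core, ACGTG or GCGTG on either strand, was present in 33 (53.2%, against 43.1%). Both forms of the hypoxia response core can overlap other matches, and a promoter with either was counted once. A match is a description of the letters and no evidence of binding.

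HIF1A, the target of the hairpin, had a normalized log2 signal of 6.35, 5.33 and 5.95 in HIF- replicates 1, 2 and 3, against 9.02, 7.58 and 7.97 in SCR replicates 1, 2 and 3. The groups did not overlap, and the difference of -2.31 (SE 0.16) had an adjusted p of 0.0044 from limma. All 8 epithelial markers on the list, such as KRT8 and EPCAM, passed the filter on dim probes, and 7 of them were detected on all 9 arrays. CLDN4 was detected on 4 HIF- and 3 SCR arrays. Of 9 measured markers of fibroblasts, leukocytes and endothelium, 6 were detected on none of the arrays. COL1A1 was detected on 5 HIF- and 3 SCR arrays at normalized log2 signals between 4.92 and 5.67, PECAM1 on 2 and 1, and CD14 on 1 and 0. The median deposited log2 signal of an array was 5.34 on the HIF- array and 5.59 on the SCR array of replicate 1, and between 4.55 and 5.04 on the other 7 arrays.

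Of the 74 subunit genes, 65 passed the filter on dim probes, which keeps a probe that reaches the median of the common probes in at least 1 of the 6 samples. They were 30 of the 33 genes of complex I, all 8 of complex III, 10 of the 16 of complex IV and all 17 of complex V. The common probes of the other 9 were detected on none of the 9 arrays at a detection p under 0.01. COX6B2, among these 9, also has a probe on the HumanHT-12 version alone, which was detected on 1 of the 3 HIF- arrays and neither SCR array. Among them 6 encode tissue isoforms of complex IV, namely COX4I2 (lung), COX6A2 and COX7A1 (heart and muscle), COX6B2, COX7B2 and COX8C (testis). The remaining 3 are complex I subunits that every such complex contains, NDUFA5, NDUFB4 and NDUFS6, whose common probes gave no signal above background in these cells. The detected subunits were bright. Their median normalized log2 signal was 10.92, against 6.89 over all 12195 genes and unnamed probes tested, and 47 of the 65 were among the brightest 10% of all.

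No subunit gene passed the test between HIF- and SCR cells. With limma and the replicate as a block, 0 of the 65 had an adjusted p under 0.05, against 0.115% of all genes and probes tested (0.0738% higher and 0.041% lower in HIF- cells), and the lowest adjusted p of a subunit gene was 0.592. At an unadjusted p under 0.05 from limma there were 3 of 65, against 7.54% of all. They were UQCR11 and ATP5MK, with higher values in HIF- cells (3.41% of all), and NDUFS1, with lower values (4.13% of all). This count was 1, 15 and 16 without replicates 1, 2 and 3, where the share of all features was not computed. At an adjusted p under 0.05 those fits called 0, 185 and 67 of all features, against 14 with all replicates, so calls also rose outside the subunit genes. The methods' t-test, which is unpaired and takes no account of the replicate, called none at either threshold. At the adjusted threshold it called 0 of all 12195 features, HIF1A included, so that count says nothing particular to the subunit genes. By the rule of the study's methods, rebuilt here, which asks for a place in the top 10% of scaled differences in each replicate with the same sign, 0 of 65 were called, against 0.763% of all. The mean difference over the 3 replicates was above 0 in 51 of 65 genes, against 48.3% of all, and its median was 0.13, against -0.01 over all. Without replicate 1 that median was -0.10, and the mean difference turned below 0 for 44 of the 65 genes. The share of all features whose mean difference turned was not computed. In RNA from a whole culture, a lower level in each cell and fewer expressing cells cannot be told apart. The SE of a subunit gene was 0.19 at the median, against 0.14 over all.

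The mean hid a disagreement between replicates, which is the main pattern in these genes. Over the 65 subunit genes the log2 difference of HIF- minus SCR had a median of 0.58 in the first replicate pair, 0.01 in the second and -0.16 in the third (replicates 1, 2 and 3). Over all genes and probes tested the medians were -0.02, -0.01 and -0.01. In replicate 1 the value was above 0 in 56 of 65 genes (47.1% of all), at least 0.3 in 49 (17.7% of all) and at least 1 in 17 (1.8% of all). It was below 0 in 9 (52.8% of all) and at most -0.3 in 2, NDUFS1 and ATP5F1A (20.1% of all). A difference of 0.3 on the log2 scale is 1.23-fold. In replicate 2 it was above 0 in 35 of 65 (48.7% of all) and at least 0.3 in 1, UQCR11 (12.9% of all). It was at most -0.3 in 4 genes of replicate 2 (13.8% of all), NDUFC2, NDUFS1, NDUFV3 and UQCRB. In replicate 3 it was below 0 in 61 of 65 genes (51.3% of all), at most -0.3 in 14 (6.29% of all) and at least 0.3 in 0 (7.63% of all). The sign was thus opposite in replicates 1 and 3 for most genes, and 52 of 65 were above 0 in replicate 1 and below 0 in replicate 3 (23.9% of all). Only UQCR11 and ATP5MK were above 0 in all 3 replicates (14.5% of all), and only NDUFB5, NDUFS1 and UQCRC2 were below 0 in all 3 (17.4% of all). The SD over replicates was 0.47 at the median of the subunit genes and 0.22 at the median of all.

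**Figure D1:**
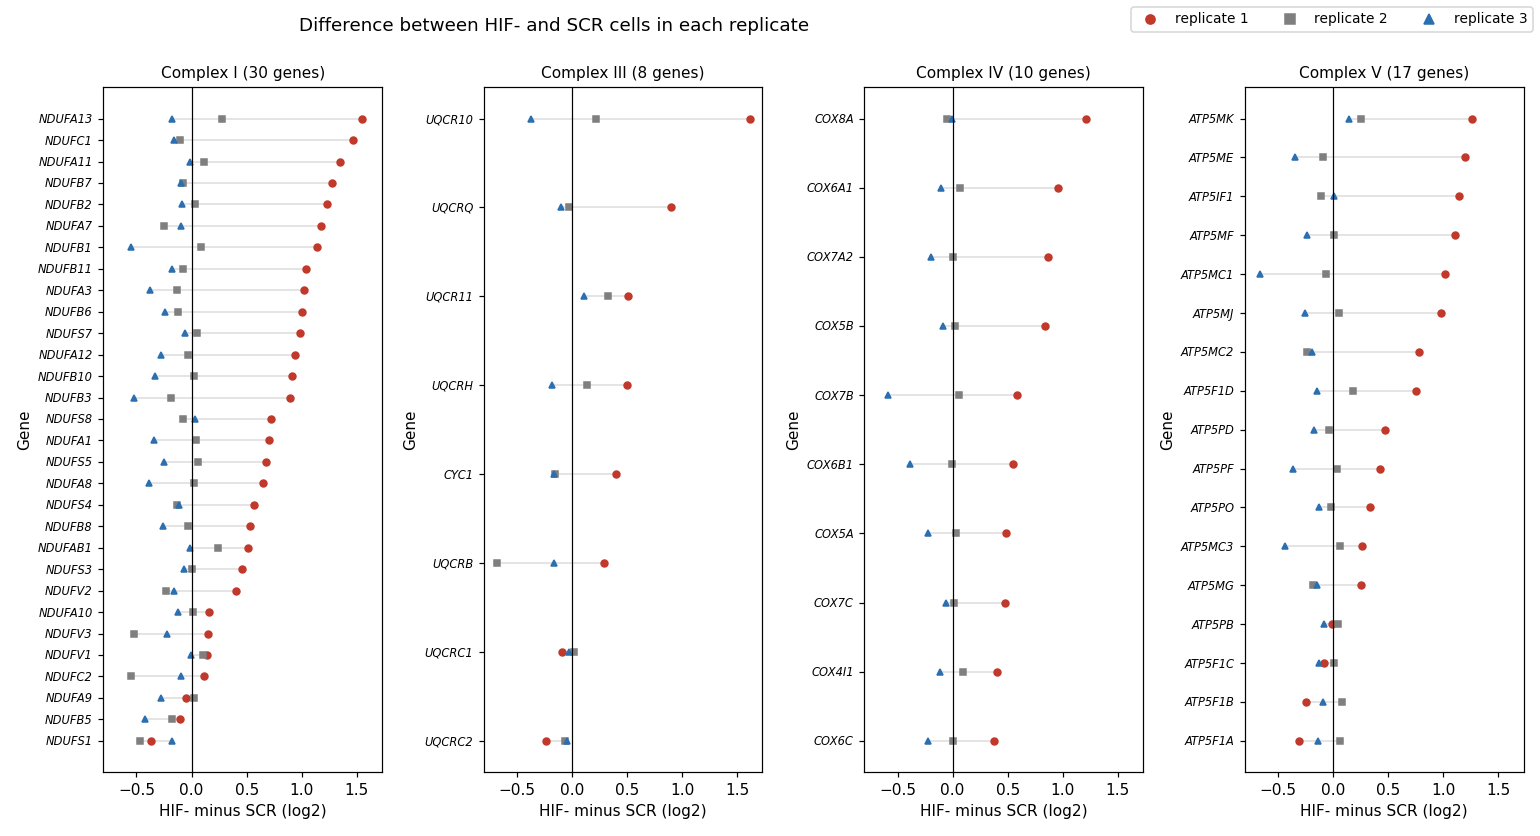
Log2 difference of HIF- minus SCR (x axis) for each of the 65 subunit genes tested (y axis), with a circle for replicate 1, a square for replicate 2 and a triangle for replicate 3, in a panel per complex and ordered by replicate 1. Circles lie right of 0 for 56 genes, and triangles lie left of 0 for 61 genes.

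**Figure D2:**
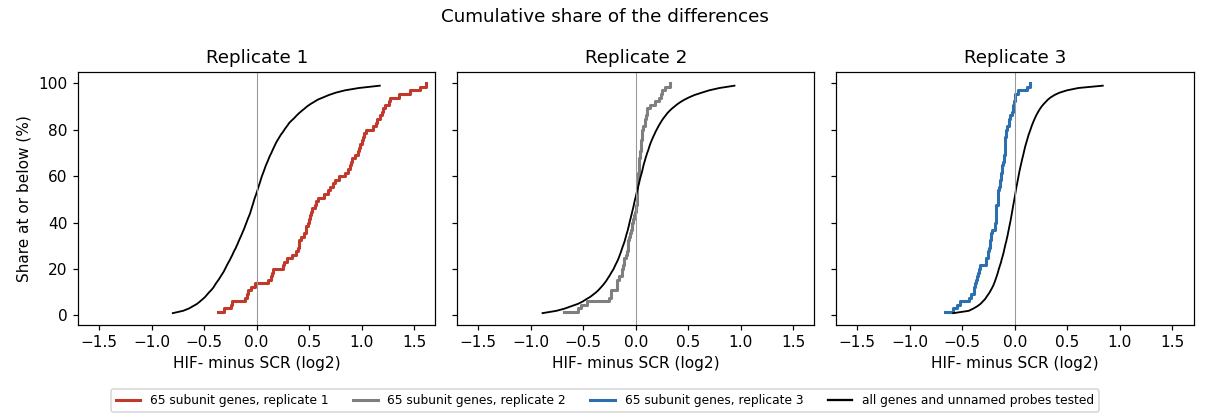
Cumulative share (y axis, %) of the log2 differences of HIF- minus SCR (x axis) in each replicate, for the 65 subunit genes (coloured) and for the 12195 genes and unnamed probes tested (black, from the 1st to the 99th percentile). The coloured curve is right of the black one in replicate 1 and left of it in replicate 3, with medians of 0.58 and -0.16.

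Across the 65 genes the differences of one replicate said little about those of another. The Spearman correlation across genes, which are not independent replicates, was 0.10 between replicates 1 and 2, -0.08 between replicates 1 and 3 and 0.12 between replicates 2 and 3. Over all genes and probes tested the corresponding values were 0.20, 0.06 and 0.19.

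After normalization, the SCR sample of replicate 1 stood apart from the other samples of the HumanRef-8 version in these genes. The median normalized log2 signal over the 65 genes was 11.01 and 11.21 on the HIF- arrays of replicates 1 and 2, against 10.59 and 11.18 on the SCR arrays. The SCR sample of replicate 1 was the lowest of these 4 samples for 50 of 65 genes, against 30.7% of all genes and probes. On the deposited scale, before any normalization here, the median over the 65 genes in replicate 1 was 11.54 on the HIF- array and 11.33 on the SCR array, while the median of all probes was lower on the HIF- array. The deposited medians over the 65 genes in replicate 2 were 10.12 on the HIF- array and 10.13 on the SCR array. The medians of all probes on that scale were 5.34 (HIF-) and 5.59 (SCR) in replicate 1, against 4.56 (HIF-) and 4.55 (SCR) in replicate 2. Both arrays of replicate 1 were thus brighter as a whole, and deposited medians of the 65 genes cannot be ranked across these replicates. Which sample of replicate 1 was unusual cannot be told from these values. In replicate 3 the medians of the normalized signals were 10.46, 10.44 and 10.39 on the HIF- arrays, against 10.63 and 10.59 on the SCR arrays. All 3 HIF- arrays therefore had a lower median than both SCR arrays. Gene by gene, every HIF- array was below every SCR array for 21 of 65 genes (13.1% of all) and above for 0 (13.2% of all), and the arrays overlapped for 44. These arrays are technical replicates of 1 sample per group, and the median SD between them over the 65 genes was 0.17 among HIF- arrays and 0.09 among SCR arrays.

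Complex I, the NADH dehydrogenase, had the highest median in replicate 1. Over its 30 genes tested the medians in replicates 1, 2 and 3 were 0.71, -0.04 and -0.18. In replicate 1, 27 of 30 were above 0 and 23 were at least 0.3, and in replicate 3, 29 of 30 were below 0, with NDUFS8 at 0.03 the exception. The 24 accessory subunits had a median of 0.90 in replicate 1 and the 6 catalytic core subunits one of 0.43, while in replicate 3 these medians were -0.23 and -0.06. NDUFA13, an accessory subunit also known as GRIM-19, had log2 signals of 10.53, 11.01 and 9.46 in HIF- replicates 1, 2 and 3, against 8.98, 10.73 and 9.63 in SCR. Its differences of 1.55, 0.28 and -0.18 had the widest range of the complex, and its mean difference was 0.55 (SE 0.30, adjusted p = 0.699 from limma). That mean was 0.052 without replicate 1 and 0.92 without replicate 3. The SCR sample of replicate 1 was the lowest of the 6, and the groups overlapped.
NDUFB8, an accessory subunit of the membrane arm and the brightest gene of the complex, had signals of 12.79, 12.61 and 11.57 in HIF- cells, against 12.27, 12.65 and 11.83 in SCR cells. Its mean difference was 0.08 (SE 0.17). NDUFS1, the largest core subunit and a carrier of iron-sulfur clusters, had dim signals of 5.86, 5.47 and 5.75 in HIF- cells, against 6.23, 5.94 and 5.92 in SCR cells. It departed from the pattern of replicate 1, and every HIF- sample was below every SCR sample once technical replicates were averaged. On the arrays of replicate 3 its signals of 5.67, 5.70 and 5.88 in HIF- cells overlapped those of 5.73 and 6.11 in SCR cells. The mean difference was -0.33 (SE 0.13, 95% confidence interval -0.63 to -0.04) with an unadjusted p of 0.0318 and an adjusted p of 0.592 from limma. In replicate 1, 10 genes of the complex were at 1 or more, all of them accessory subunits, among them NDUFC1 (1.46), NDUFA11 (1.35), NDUFB7 (1.27) and NDUFB2 (1.23). The core subunit NDUFV1, which binds FMN and accepts electrons from NADH, had differences of 0.14, 0.11 and -0.00, so its values stayed close together in every replicate. NDUFB3 and NDUFB1 had the most negative values of the complex in replicate 3, at -0.52 and -0.55. NDUFB1 was detected on 4 of the 5 HIF- arrays, and NDUFC2 on 3 of them.

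Complex III, the cytochrome bc1 complex, divided by the role of its subunits in replicate 1. Its 8 genes had medians of 0.44, -0.00 and -0.13. The 5 small subunits had a median of 0.51 in replicate 1, whereas the 2 core proteins, UQCRC1 and UQCRC2, were at -0.09 and -0.23. CYC1, which encodes the catalytic cytochrome c1, had differences of 0.39, -0.16 and -0.16. UQCR10, a small subunit, had signals of 8.90, 9.14 and 7.54 in HIF- cells, against 7.29, 8.93 and 7.91 in SCR cells. The differences of 1.61, 0.22 and -0.37 span the widest range of all 65 genes, and the fold of HIF- over SCR was 3.06 in replicate 1 and 0.77 in replicate 3. On the arrays of replicate 3 its signal was 7.40, 8.18 and 7.03 in HIF- cells, against 8.11 and 7.72 in SCR cells, which overlap.
UQCR11, another small subunit, had signals of 6.78, 7.26 and 6.51 in HIF- cells, against 6.27, 6.94 and 6.40 in SCR cells. It was higher in the HIF- sample within each replicate, by 0.51, 0.33 and 0.11, although the groups overlap when the replicates are pooled. The mean difference was 0.32 (SE 0.13, 95% confidence interval 0.00 to 0.63) with an unadjusted p of 0.0474 and an adjusted p of 0.652 from limma. On the arrays of replicate 3, its signals of 6.71, 6.50 and 6.32 in HIF- cells overlapped those of 6.62 and 6.18 in SCR cells. UQCRQ, a small subunit known as the ubiquinone-binding protein QP-C and the brightest gene of the complex, had signals of 12.67, 12.94 and 12.04 in HIF- cells, against 11.77, 12.96 and 12.14 in SCR cells. Its mean difference was 0.26 (SE 0.21).

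Complex IV, cytochrome c oxidase, showed the most even pattern among its subunits. Its 10 genes tested were all above 0.3 in replicate 1 (range 0.37 to 1.21), between -0.05 and 0.09 in replicate 2, and all below 0 in replicate 3 (range -0.59 to -0.01). The medians were 0.57, 0.02 and -0.16. For 6 of the 10, every HIF- array of replicate 3 was below every SCR array (13.1% of all), and for 0 above (13.2% of all). These arrays are technical replicates. COX7C, a small subunit and the brightest gene of the complex, had signals of 13.39, 13.18 and 12.60 in HIF- cells, against 12.91, 13.16 and 12.66 in SCR cells. COX8A, the widely expressed form of subunit 8, had signals of 12.36, 12.55 and 11.76 in HIF- cells, against 11.15, 12.60 and 11.77 in SCR cells. Its difference was 1.21 in replicate 1 and close to 0 in the other replicates (-0.05 and -0.01), and the mean was 0.38 (SE 0.25, adjusted p = 0.703 from limma). COX7B had the most negative value of the complex in replicate 3, -0.59, and 0.58 in replicate 1, so that its mean was 0.02 (SE 0.21).
Of the isoform pair of subunit 4, COX4I1 was detected on every array and COX4I2 on none. COX4I1, the widely expressed form, had signals of 13.13, 13.24 and 12.36 in HIF- cells, against 12.73, 13.14 and 12.47 in SCR cells, with a mean difference of 0.13 (SE 0.14, 95% confidence interval -0.21 to 0.46). The common probe of COX4I2 therefore gives no measured difference. COXFA4 (NDUFA4), a complex IV subunit whose current symbol lies outside the naming rule, had differences of 0.56, -0.38 and -0.13 in replicates 1, 2 and 3. Its paralogue COXFA4L2 was detected on none of the arrays.

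Complex V, the ATP synthase, varied with the part of the enzyme in replicate 1. Its 17 genes had medians of 0.47, 0.01 and -0.15 in replicates 1, 2 and 3. The 4 genes of the catalytic F1 head and central stalk had a median of -0.17 in replicate 1, with ATP5F1A (alpha), ATP5F1B (beta) and ATP5F1C (gamma) at -0.31, -0.24 and -0.09 and ATP5F1D (delta) at 0.75. By contrast, the medians in replicate 1 were 1.10 for the 5 small membrane subunits, 0.78 for the 3 genes of the c-ring and 0.38 for the 4 of the peripheral stalk. ATP5IF1, the inhibitor that binds F1 when the proton gradient collapses, was at 1.14. In replicate 3 the median of every part was below 0, from -0.14 for the F1 head to -0.44 for the c-ring, and ATP5IF1 was at 0.00. ATP5F1B, the brightest subunit gene, had signals of 13.31, 13.39 and 13.16 in HIF- cells, against 13.55, 13.30 and 13.25 in SCR cells. Its mean difference was -0.08 (SE 0.13).
ATP5MK, a small membrane subunit that takes part in dimer formation, had signals of 7.58, 8.19 and 7.03 in HIF- cells, against 6.31, 7.93 and 6.88 in SCR cells. It was higher in the HIF- sample within each replicate, by 1.26, 0.25 and 0.14. The mean difference was 0.55 (SE 0.22, 95% confidence interval 0.03 to 1.07) with an unadjusted p of 0.0399 and an adjusted p of 0.637 from limma. Its size rests largely on replicate 1, since without that replicate the mean difference was 0.20 (adjusted p = 0.718 from limma). In the fit without replicate 2, with 1 residual degree of freedom and a prior of 478, 185 of all 11469 features passed. ATP5MK was the single subunit gene among them, at 0.70 and an adjusted p of 0.0491 from limma. Its signals on the arrays of replicate 3 were 7.03, 7.22 and 6.83 in HIF- cells, against 6.90 and 6.87 in SCR cells, which overlap. ATP5MC1, a gene for the proton-carrying subunit c, had signals of 11.43, 11.86 and 9.63 in HIF- cells, against 10.42, 11.93 and 10.29 in SCR cells. Its difference was 1.01 in replicate 1 and -0.66 in replicate 3, where its arrays did not overlap (9.17, 10.07 and 9.63 in HIF- cells, against 10.47 and 10.10 in SCR cells). The other genes for the same mature subunit, ATP5MC2 and ATP5MC3, had 0.78 and 0.26 in replicate 1 and -0.19 and -0.44 in replicate 3.

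**Figure D3:**
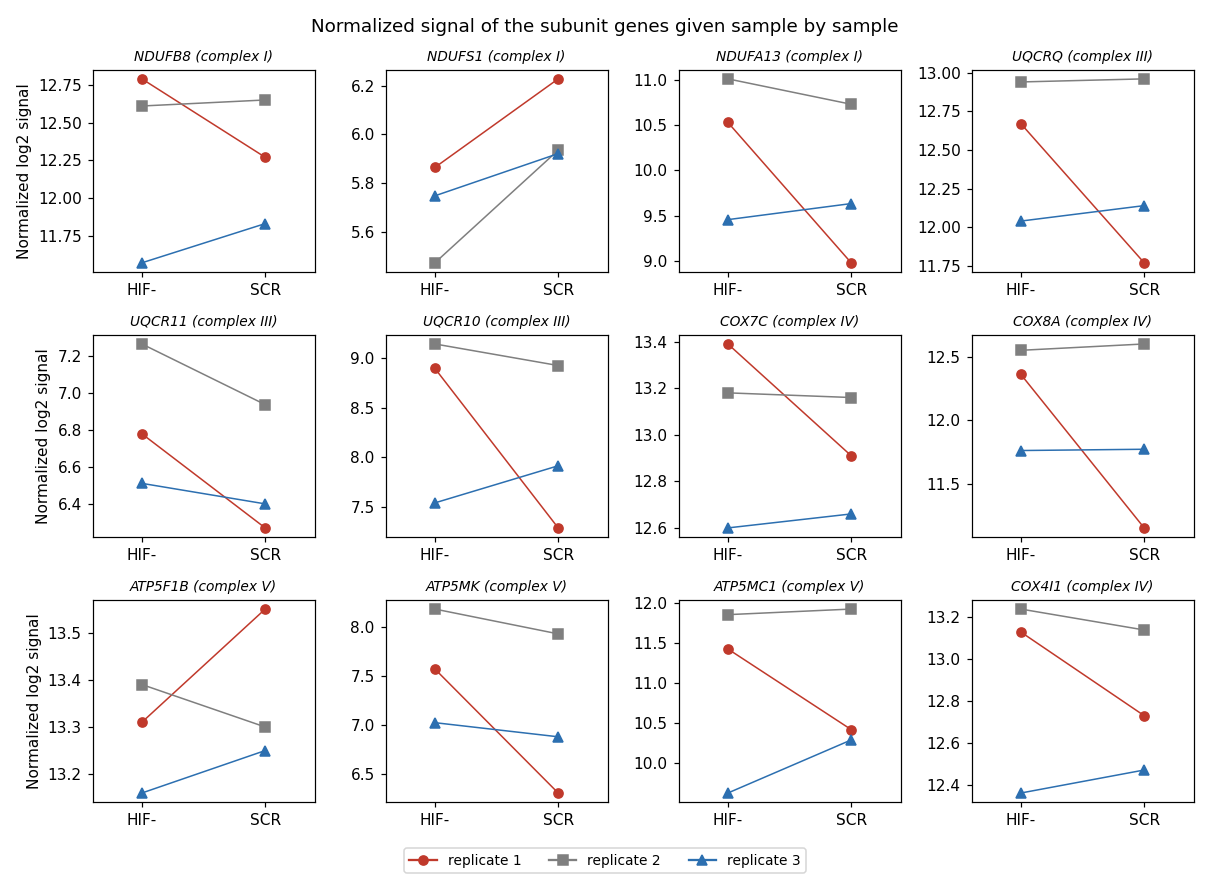
Normalized log2 signal (y axis) in HIF- cells (left) and SCR cells (right) for the 12 subunit genes given sample by sample, with a line joining the samples of a replicate and an axis range of its own in each panel. Lines for replicate 1 slope down from HIF- to SCR in all panels but those of NDUFS1 and ATP5F1B, and lines for replicate 3 slope up in all but UQCR11 and ATP5MK.

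For genes of complex V and for UQCR10, other probes could be set beside the brightest one. Of the 65 genes, 10 had a further common probe detected on all 9 arrays, 12 such probes in all, and none of these genes belongs to complex I or IV. Their median differences were 0.66, 0.07 and -0.21 in replicates 1, 2 and 3, and 10, 8 and 11 of the 12 had the sign of the brightest probe. The further probes of UQCR10 were at 0.67 and 0.64 in replicate 1, against 1.61 for its brightest probe, so the size for that gene differs between probes. The further probe of ATP5IF1 was at -0.06 in replicate 1, where the brightest was at 1.14. On the HumanHT-12 version alone there were 17 more probes for 15 genes that follow the naming rule, 12 of them detected on all 5 arrays of replicate 3. Their median difference was -0.21, against -0.02 over all 4230 such probes. Every HIF- array was below every SCR array for 5 of the 12 (13.1% of all such probes) and above for 0 (9.46%). The 5 were probes for ATP5F1E, NDUFB6, NDUFB9, UQCRB and UQCRHL.

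Genes around the respiratory chain did not all share the pattern of the subunits. The 38 assembly factors tested, which build the complexes and are not part of them, had medians of 0.25, -0.06 and -0.10 in replicates 1, 2 and 3. Among them the cytochrome oxidase copper chaperone COX17 had differences of 1.41, 0.18 and -0.26. The medians were -0.00, 0.11 and -0.16 for 3 genes of complex II, and -0.02, 0.01 and -0.19 for 12 genes of cytochrome c and ubiquinone synthesis. They were -0.13, 0.02 and -0.12 for 12 genes of the TCA cycle. The medians of these last 3 groups were thus below 0 in replicate 3, as in the subunit genes, and not above 0 in replicate 1. Of these 65 other genes none passed the test with limma (0.115% of all), and 3 had an unadjusted p under 0.05. The 13 regulators of mitochondrial genes tested, such as TFAM and PPRC1, had medians of -0.23, -0.00 and 0.05. PPARGC1A, a coactivator of mitochondrial biogenesis, had differences of -0.87, -0.91 and 0.03, with a mean of -0.59 (SE 0.20, adjusted p = 0.547 from limma), and was detected on 2 HIF- and 2 SCR arrays. GABPA was detected on none of the arrays and NRF1 on 1 of each group. The 10 HIF-1 targets of energy metabolism tested had medians of -0.07, 0.02 and 0.04, and none passed the test with limma or had an unadjusted p under 0.05. PDK1, detected on 2 HIF- and 2 SCR arrays, had differences of -0.02, 0.27 and -0.02, and LONP1 had -0.23, -0.01 and 0.13.

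Groups of genes for ribosomal proteins and the proteasome core also had medians above 0 in replicate 1, below that of the subunit genes, and medians near 0 in replicate 3. The ribosomal lists leave out names ending in L and a number, and so most genes of the large ribosomal subunits. MRPL51, named below, is among those left out. The 27 mitochondrial ribosomal proteins listed had medians of 0.46, 0.01 and -0.02. The 37 cytosolic ribosomal proteins listed had 0.25, -0.01 and 0.01, and the 16 proteasome core subunits 0.23, -0.06 and -0.00. In replicate 3, every HIF- array was below every SCR array for 0 of the 27 mitochondrial ribosomal proteins listed. The same held for 4 of the 37 cytosolic ribosomal proteins listed and for 1 of 16 proteasome subunits. The subunit genes had 21 of 65, and the genes of cytochrome c and ubiquinone synthesis 7 of 12. The TCA cycle had 4 of 12 and the assembly factors 9 of 38, and the share over all genes and probes tested was 13.1%. These differences between groups of genes are descriptions and were not tested. The genes outside the subunits whose differences lay nearest to the medians of the subunits were RBX1 (0.55, 0.01 and -0.16), NDUFAF6 (0.58, -0.01 and -0.13), MRPS12 (0.62, 0.00 and -0.18), MRPL51 (0.61, -0.00 and -0.21) and TMEM60 (0.55, 0.05 and -0.15), by Euclidean distance over 3 replicates.

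**Figure D4:**
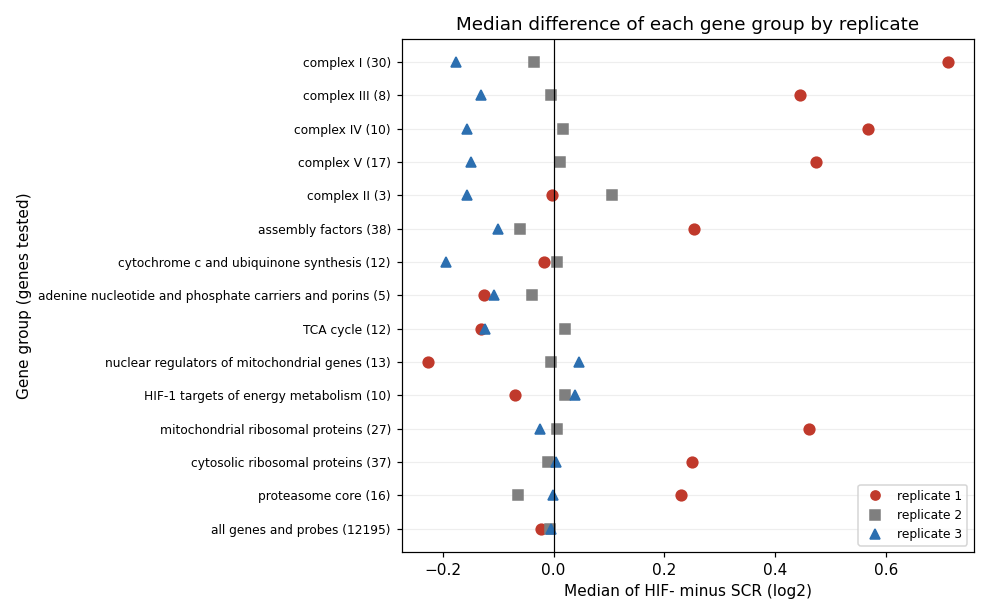
Median log2 difference of HIF- minus SCR (x axis) in each replicate (circle, square and triangle for replicates 1, 2 and 3) for each gene group (y axis, number of genes tested in brackets). The 4 complexes lie between 0.44 and 0.71 in replicate 1 and between -0.18 and -0.13 in replicate 3, and all genes and probes lie near 0. The ribosomal groups leave out most genes of the large ribosomal subunits.

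The genomic span of the gene moved with the difference in replicate 1. Across the 65 subunit genes the Spearman correlation between span and difference was -0.42, -0.18 and -0.08 in replicates 1, 2 and 3. Across all 11066 named genes with a span it was -0.35, -0.05 and 0.07, and all of these points come from the same samples. When all genes were divided into 4 groups of equal size by span, the shortest group, with spans up to 11040 bases, had a median difference of 0.14 in replicate 1, and the longest group had -0.15. The shortest group held 35 of the 65 subunit genes, and their median in replicate 1 was 0.75. The 23 subunit genes in the next group were at 0.49, where the median of all genes was 0.01. In the third group 5 subunit genes were at -0.052, against -0.089 for all genes, and in the longest group 2 subunit genes were at 0.36. In replicate 3 the subunit genes of the shortest group and the next were at -0.15 and -0.18, against -0.02 for all genes in each. Across the subunit genes the Spearman correlation of the difference with mean signal was -0.06, 0.13 and -0.03 in replicates 1, 2 and 3. The Pearson correlation was 0.04, 0.39 and -0.01. Since 47 of the 65 genes lay among the brightest 10% of all, these correlations say little on signal level. The brightest 10% of all had medians of -0.03, -0.00 and -0.02. The part that span, signal level and the lower median signal of the HIF- array of replicate 1 had in the differences was not tested.

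**Figure D5:**
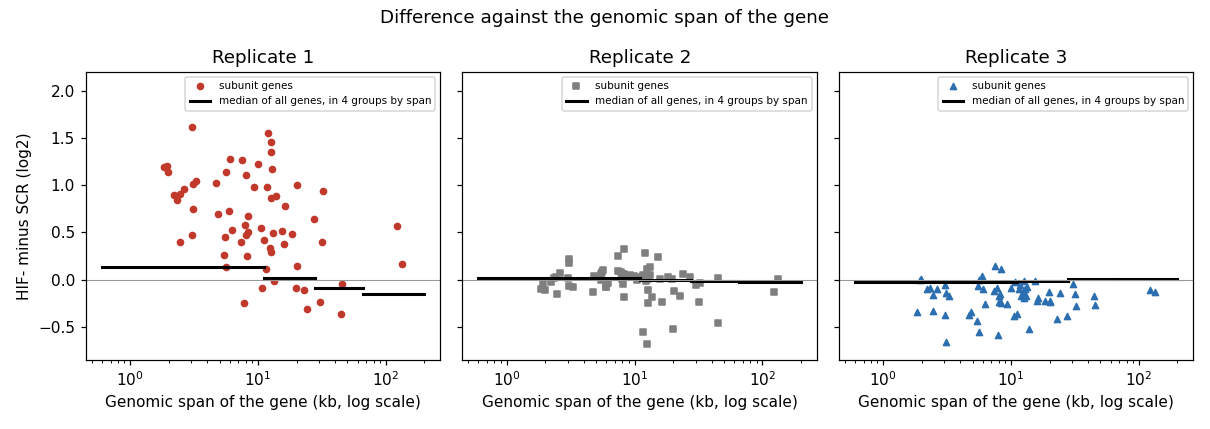
Log2 difference of HIF- minus SCR (y axis) against the genomic span of the gene (x axis, kb, log scale) for the 65 subunit genes in each replicate, with black lines for the median of all named genes in each of 4 groups by span. In replicate 1 the subunit genes of the shortest group have a median of 0.75, above the black line at 0.14, and in replicate 3 the points lie around -0.15 at all spans.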

How the data were processed

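RNA of AGS HIF- and SCR cells was hybridized to Illumina BeadChips (5 HIF- and 4 SCR arrays). The authors deposited, per array, log2 signals in a table named non-normalized, together with detection p-values of each probe. The methods name RMA and beadarray, with versions not given in the sources used here. The plan of the tests took these signals for linear ones, so they were first returned to the linear scale. Background was corrected with nec of limma 3.58.1 in R 4.3.3 (offset 16), arrays were quantile-normalized within their version, log2 was taken, and technical replicates were averaged. Of 24525 common probes, 14686 reached the median of the common probes in at least 1 of 6 samples and were kept. The brightest probe per gene left 12195 features (11073 named genes and 1122 unnamed probes). Symbols came from the platform annotation, with RefSeq for spans and promoters. No probe had a second gene, and 16 with different symbols in the 2 annotations were left unnamed.

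Features were tested with limma (lmFit, eBayes without trend, residual degrees of freedom 2, prior 5.25), with a term for the replicate and with Benjamini-Hochberg adjustment over all features. The replicate number marks a shared BeadChip. Same-numbered HIF- and SCR samples deviated together from the means of their groups (r = 0.623, 0.805 and 0.850 over all features), which a shared array version alone can give. Over the subunit genes r was 0.385, 0.887 and 0.732 in replicates 1, 2 and 3, so it was lowest in replicate 1. The p-values rest on the spread of the HIF- minus SCR differences over replicates, moderated towards a variance drawn from all features. They do not measure a spread between separate hairpin lines. The rebuilt rank rule divided each difference by a running median absolute deviation over 501 features. The subunit genes and lists were chosen with earlier results of these data known. Genes given sample by sample were, per complex, the brightest, that with the lowest p and that with the widest range over replicates, plus COX4I1. The code was tested on simulated data. An array detected at most 55.6% of its probes, and the number of arrays limits the precision. Alternatives covered the background correction, normalization, filter, choice of probe, the authors' processed log2 values, technical replicates, the block, the variance trend, the t-test and each replicate left out. Figures were drawn with matplotlib 3.10.9.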

Additional observations from a re-analysis of the deposited data

How the results depend on the processing

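No subunit gene was called under any alternative at an adjusted p under 0.05 with all replicates in the fit. With the t-test, and with no filter, 0 of all features were called, so these alternatives say nothing particular to the subunit genes. With a replicate left out the count of subunit genes called ranged from 0 to 1. The 1 was ATP5MK without replicate 2 (0.70, adjusted p = 0.0491 from limma), where 185 of all 11469 features were called. At an unadjusted p under 0.05 the count was 3, with 0 to 3 under the other alternatives that kept all replicates and 1 to 16 with a replicate left out. The share of all features at that threshold was not computed for the alternatives. The median of the mean differences ranged from -0.10 without replicate 1 to 0.32 without replicate 3, so its sign rests on replicate 1. Over the other alternatives the median was 0.51 to 0.71 in replicate 1 and -0.20 to -0.14 in replicate 3, on the same side of 0 in each. In replicate 2 it was -0.052 when arrays were scaled to a common median, against 0.01. Without replicate 1 the mean difference turned for 44 of the 65 genes, against 4 without replicate 2 and 3 without replicate 3. The share of all features that turned was not computed. Among the 12 genes given sample by sample the mean difference turned for 7 without replicate 1. With each replicate left out in turn it ranged from 0.052 to 0.92 for NDUFA13, from 0.20 to 0.76 for ATP5MK, from -0.15 to 0.24 for NDUFB8, from -0.064 to 0.44 for UQCRQ, from -0.078 to 0.92 for UQCR10, from -0.022 to 0.24 for COX7C, from -0.029 to 0.60 for COX8A, from -0.36 to 0.47 for ATP5MC1 and from -0.012 to 0.25 for COX4I1. It also turned for ATP5F1B under scaling to a common median (0.0095) and for ATP5MC1 with the first technical replicate only (-0.12). The cause was not tested. With no replicate block and the array version as covariate, 0 subunit genes were called, as with the block, and 2 of all features, against 14. With that first technical replicate alone, 66 subunit genes passed the filter, and 52 of the 66 were below 0 in replicate 3. With 3 samples per group, differences of the size of one SE, 0.19 at the median, cannot be told from 0, and probes near background give only rough sizes.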
